A study of Mus musculus with 7 samples.

Results

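Autophagy is the route by which a cell wraps damaged organelles, protein aggregates or bulk cytoplasm in a double membrane, the autophagosome, and delivers them to the lysosome for breakdown. A kinase complex starts the process, lipid-transfer and scramblase proteins feed the growing membrane, small ubiquitin-like proteins of the ATG8 family are attached to its lipids, receptors tie cargo to those proteins, and acid hydrolases in the lysosome digest the delivered material. In sensory neurons the pathway matters because autophagosomes form along very long axons and travel back to the cell body.

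Transcript levels of 45 genes of this machinery were compared in mouse dorsal root ganglia, which hold the cell bodies of sensory neurons. The genes were picked by symbol from a table of 54309 genes, and each of the 45 symbols matched exactly 1 row. Male C57bl/6 mice aged 6 to 8 weeks had their sciatic nerve injured at Zeitgeber time (ZT, hours from lights on) 8 or 20, and the ganglia of lumbar levels L4 to L6 were collected 72 h later, which is the same clock time as the injury. The cells were dissociated with enzymes and passed through an albumin gradient to enrich neurons before RNA was taken. There were 4 samples at ZT20 and 3 at ZT8, all from injured animals, so neither an uninjured state nor the effect of the injury itself is measured here. The series concerns how circadian time tunes axon regrowth, and the comparison asks which of these transcripts differed with that time. The labels do not say whether a sample is 1 animal or a pool, so p-values measure the spread between these samples.

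Values are TPM, a measure of transcript level per unit of transcript length in which every sample is scaled to the same sum. Sequencing depth is unknown, because TPM does not keep it. Of the 7 libraries, ZT8 replicate 2 listed the fewest genes above 0 (18297, against 22541 to 25238 in the others). Neuronal markers (12 genes) summed to between 20140 and 24910 TPM at ZT20 and between 15450 and 22730 TPM at ZT8, and every one of them was above 0 in every sample. Satellite glia markers (8 genes) summed to between 7501 and 9166 TPM at ZT20 and between 12780 and 15490 TPM at ZT8, so glial RNA was present in all libraries and its sum did not overlap between the groups. Of the neuronal markers Nefh and Elavl4 were called higher at ZT20 (differences 1.36 and 1.08, limma adjusted p = 0.00569 and 0.00735), beside 12.8% of all genes. The other 10 were not called, and Uchl1 and Isl1 had negative differences (-0.096 and -0.041). Plasma cell markers (5 genes) summed to between 107.5 and 296 TPM at ZT20 and between 366 and 708 TPM at ZT8, without overlap; of the 3 tested Mzb1 was called lower, and Tnfrsf17 was listed at 0 in every ZT8 sample. The part of these cells in the results was not tested. Library names were numbers at ZT20 and letters at ZT8, and whatever batch they stand for cannot be told apart from clock time. The label male was checked with Y-linked genes: Ddx3y, Eif2s3y and Uty were listed at 0 in ZT20 replicates 3 and 4, where Xist was at 2.21 and 2.30 TPM, and ZT20 replicate 2 held both Xist (1.08 TPM) and Ddx3y (11.7 TPM). ZT20 replicates 3 and 4 therefore go against the label, and replicate 2 goes against it in part. Each called member, and each other pathway gene given with its values, is also given without replicates 3 and 4. With replicate 2 left out as well, only ZT20 replicate 1 would remain.

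Differences are ZT20 minus ZT8 on the log2(TPM + 1) scale, tested in limma over the 14800 genes whose mean over all samples reached 1 TPM, and a gene counts as called at a Benjamini-Hochberg adjusted p-value under 0.05. All 45 members were tested. Of them 5 were higher at ZT20 (Wdfy3, Atg2b, Ulk1, Nbr1 and Vps13c) and 2 were lower (Gabarapl2 and Map1lc3a), while 38 did not pass. That is 11.1% of the members higher and 4.44% lower, beside a background of 12.8% and 3.61% over all tested genes (16.4% in either direction), so the share of members called was near that of any genes. The unadjusted p-value was under 0.05 for 12 members (26.7%), against 34.6% of all genes. Groups with ranges that did not overlap were seen for 11 members (24.4%), against 33.2% of all genes. The median difference was 0.19 over the members and 0.23 over all tested genes, and the difference was positive for 30 members (66.7%) and for 66.4% of all genes. Median-ratio scaling between the samples moved the median of all genes to 0.033, and the members then called were 4 higher and 6 lower, beside 7.62% and 7.84% of all genes. After a correction for transcript length and GC content 1 member was higher and 6 were lower, beside 3.58% and 5.26% of all genes. Over all genes the share of calls that were higher at ZT20 was 78.1% as deposited, 49.3% under median-ratio scaling, 55.7% under quantile normalization and 40.5% after the length and GC correction.

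**Figure D1:**
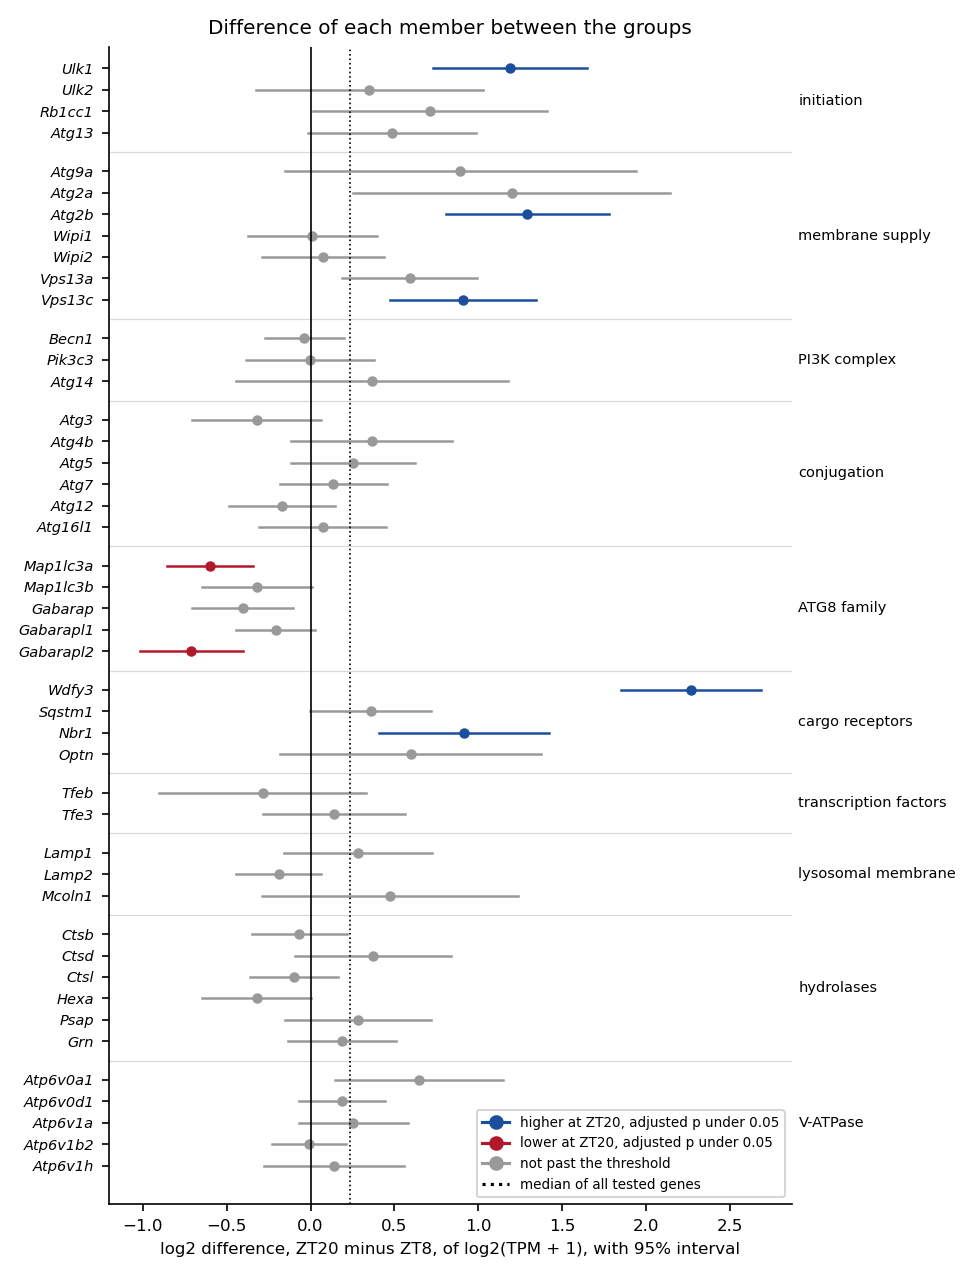
Difference between the groups for each of the 45 members, ordered by role; the x axis is the ZT20 minus ZT8 difference of log2(TPM + 1), points are limma estimates and bars their 95% intervals, and the dotted line is the median of all 14800 tested genes (0.23). Wdfy3 lies farthest right at 2.27, and the points of all 5 ATG8 family genes lie left of 0.

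Cargo receptors held the largest difference. Wdfy3 (ENSMUSG00000043940) encodes ALFY, a very large scaffold protein with a BEACH domain that brings ubiquitinated aggregates together with the autophagy machinery. Its levels were 21.8, 22.02, 19.9 and 22.3 TPM in ZT20 replicates 1 to 4, against 4.47, 3.91 and 2.82 TPM in ZT8 replicates 1 to 3. The ZT20 samples were tightly grouped, and each was far above each ZT8 sample. The ZT20 mean of 21.5 ± 1.08 TPM (SD, n = 4) was 5.76 times the ZT8 mean of 3.73 ± 0.839 TPM (SD, n = 3). The log2 difference was 2.27 (standard error 0.18, limma adjusted p = 0.00152). Among all tested genes it ranked at position 48 from the top. Without ZT20 replicates 3 and 4 the difference was 2.29, of like size, but with 2 samples left at ZT20 the limma adjusted p was 0.101, within a range of 0.000412 to 0.540 over its 19 alternatives.

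Nbr1 (ENSMUSG00000017119), a receptor that links ubiquitinated cargo to ATG8 proteins, was the other receptor that passed. It was at 38.1, 35.6, 43.1 and 47.4 TPM at ZT20 and at 24.9, 14.3 and 26.5 TPM at ZT8. No sample of either group reached into the range of the other, and ZT8 replicate 2 was the lowest. The log2 difference was 0.91 (standard error 0.22, limma adjusted p = 0.0283). Leaving out ZT20 replicate 1, 3 or 4 gave differences of like size, 0.94, 0.89 and 0.84, with adjusted p-values of 0.0641, 0.0888 and 0.0885. Without ZT20 replicates 3 and 4 together the difference was 0.77 (limma adjusted p = 0.290), and over all its alternatives the adjusted p ran from 0.00882 to 0.692.

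Sqstm1, which encodes p62, the best known of these receptors, was at 726, 669, 723 and 715 TPM at ZT20 and at 624, 416 and 648 TPM at ZT8. The groups did not overlap, but the gap between the nearest samples was small and the gene did not pass (difference 0.36, limma adjusted p = 0.147, and 0.15 without ZT8 replicate 2). Optn, the receptor optineurin that serves in the removal of mitochondria, was at 36.2 to 39.9 TPM at ZT20 and at 32.1, 11.985 and 38.9 TPM at ZT8, with overlapping ranges (difference 0.60, limma adjusted p = 0.247, and 0.10 without ZT8 replicate 2). Per unit length, p62 transcripts were thus far more abundant than those of the other receptors in both groups.

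**Figure D2:**
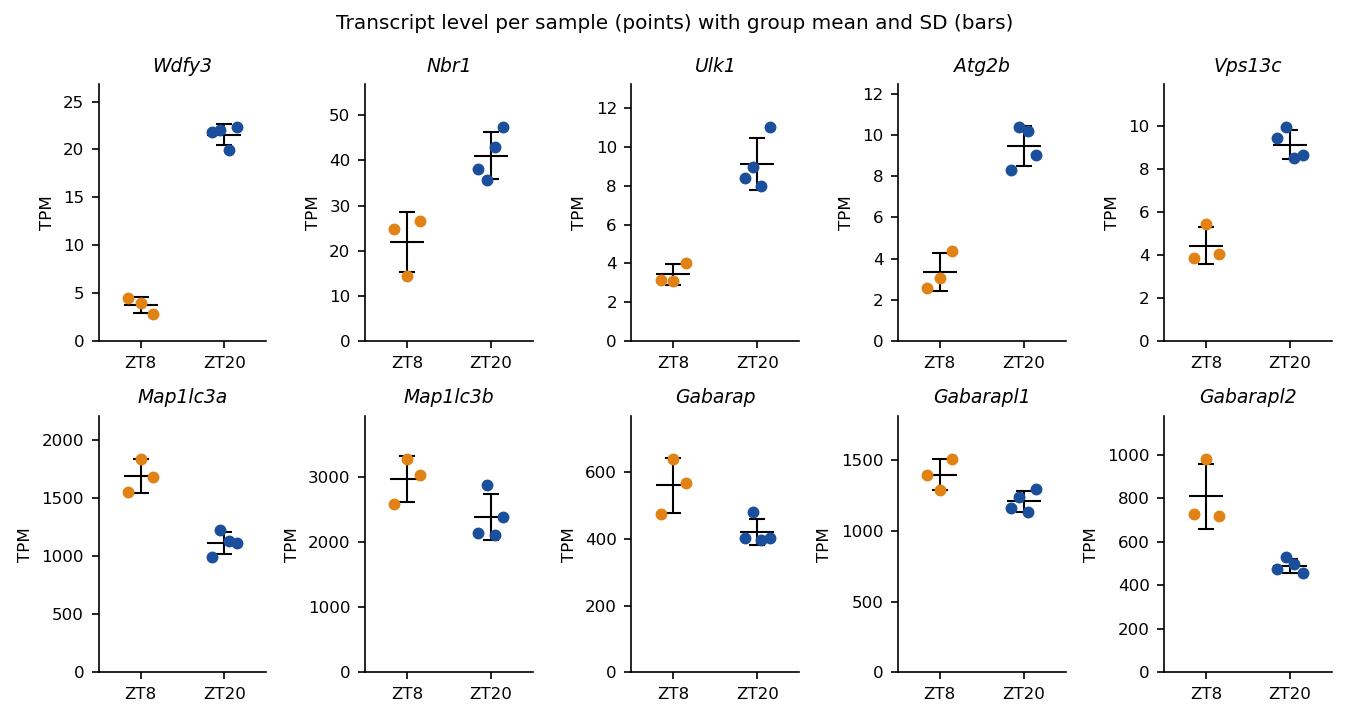
TPM in each sample for the 5 members higher at ZT20 (top row) and the 5 ATG8 family members (bottom row); points are samples, horizontal bars the group means and error bars the SD (n = 3 at ZT8 and n = 4 at ZT20), with each y axis starting at 0. The groups are separate in every panel of the top row and, in the bottom row, for Map1lc3a and Gabarapl2.

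ATG8 proteins are the tags of the autophagosome: a conjugation system joins them to phosphatidylethanolamine in the membrane, where receptors and fusion factors bind them. All 5 members had a negative difference (median -0.41), as did 4979 of all 14800 genes. Of the 5, 2 passed, beside 3.61% of all genes called lower. In the length groups of Map1lc3a and Gabarapl2, described further on, 9.97% and 6.78% of genes were called lower. The difference was negative for all 5 under each of the alternatives run, scalings included. Summed over the family, levels were 5173, 6351, 5274 and 5651 TPM at ZT20 and 6718, 8024 and 7506 TPM at ZT8. Every ZT8 sum was above every ZT20 sum.

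Gabarapl2 (ENSMUSG00000031950), which encodes GATE-16 of the GABARAP branch, fell most. Its levels were 473, 531, 499 and 455 TPM at ZT20 and 727, 982 and 719 TPM at ZT8. The groups were well apart, with ZT8 replicate 2 the highest. The mean was 489.5 ± 32.7 TPM (SD, n = 4) at ZT20 against 809.5 ± 149 TPM (SD, n = 3) at ZT8. The log2 difference was -0.71 (standard error 0.14, limma adjusted p = 0.0131). Without ZT20 replicate 3 the difference was as large (-0.72, adjusted p = 0.0516), and without replicates 3 and 4 it was -0.68 (limma adjusted p = 0.195), in a range of 0.00377 to 0.645 over the alternatives.

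Map1lc3a (ENSMUSG00000027602), which encodes LC3A of the LC3 branch, was at 990.1, 1222, 1131 and 1111 TPM at ZT20 and at 1548, 1835 and 1678 TPM at ZT8. The highest ZT20 sample was below the lowest ZT8 sample. The log2 difference was -0.60 (standard error 0.11, limma adjusted p = 0.0129). The difference was of the same size without ZT20 replicate 3 (-0.61, adjusted p = 0.0532) and without a filter on low genes (-0.60, adjusted p = 0.0515), where more genes were tested. Without ZT20 replicates 3 and 4 the difference was -0.61 (limma adjusted p = 0.192), and the adjusted p ran from 0.00552 to 0.644 over the alternatives.

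The other ATG8 genes did not pass. Map1lc3b, the LC3 form most used as a marker of autophagosomes, had the highest mean level of all 45 members. It was at 2141, 2877, 2113 and 2386 TPM at ZT20 and at 2576, 3275 and 3032 TPM at ZT8 (difference -0.32, limma adjusted p = 0.153). Gabarapl1 was at 1165, 1242, 1134 and 1297 TPM at ZT20 and at 1393, 1293 and 1511 TPM at ZT8 (difference -0.21, limma adjusted p = 0.190). Gabarap was at 404, 479, 397 and 403 TPM at ZT20 and at 474, 639 and 566 TPM at ZT8 (difference -0.41, limma adjusted p = 0.0672). In each of the 3 genes a single ZT20 sample reached into the ZT8 range, replicate 2 for Map1lc3b and Gabarap and replicate 4 for Gabarapl1. Gabarap passed without ZT8 replicate 1 (-0.52, limma adjusted p = 0.0431). Under median-ratio scaling Gabarap and Gabarapl1 also passed, with differences of -0.64 and -0.44 (limma adjusted p = 0.0389 and 0.0386). ATG8 genes are close relatives, and how reads shared between them or with processed copies were assigned is not given in the sources used here, so single values are uncertain. The satellite glia sum given above was lower at ZT20, as was the ATG8 sum, and most of it was Apoe, at 6261 to 7615 TPM at ZT20 and 10623 to 13557 TPM at ZT8. Apoe and Fabp7 were among its markers called lower, 5 of the 8 were not called, and Cdh19 and Kcnj10 had positive differences (0.38 and 0.21). With a marker score as covariate, described further on, the differences were -0.60 for Gabarapl2 and -0.54 for Map1lc3a, and neither passed (limma adjusted p = 0.181 and 0.163).

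Initiation of autophagy runs through the ULK complex, a kinase (ULK1 or ULK2) with its scaffold FIP200, encoded by Rb1cc1, and ATG13. All 4 genes had positive differences as deposited, beside 66.4% of all genes, and 1 of the 4, Ulk1, passed, beside 12.8% of all genes called higher. In the length group of Ulk1, described further on, 27.2% of genes were called higher. Ulk1 (ENSMUSG00000029512) was at 8.42, 8.998, 7.99 and 11.03 TPM at ZT20 and at 3.17, 3.08 and 4.04 TPM at ZT8. The groups were clearly separate, at low levels. On the log2 scale the difference was 1.19 (standard error 0.20, limma adjusted p = 0.00940). With ZT20 replicates 3 and 4 left out it was 1.14 (limma adjusted p = 0.184), and the adjusted p ran from 0.00488 to 0.655 over its alternatives. Its partner kinase gene Ulk2 was at 6.89 to 8.75 TPM at ZT20 and at 4.83, 10.5 and 3.95 TPM at ZT8, and did not pass (difference 0.35, limma adjusted p = 0.425). ZT8 replicate 2 was its highest sample: without it the difference was 0.72 (limma adjusted p = 0.0287), and with array weights it was 0.64 (limma adjusted p = 0.0398). Its sign turned negative under quantile normalization and under the length and GC correction. Rb1cc1 was at 39.7, 77.0, 92.5 and 93.8 TPM at ZT20 and at 49.0, 33.0 and 50.6 TPM at ZT8. Here ZT20 replicate 1 sat inside the ZT8 range, unlike the other ZT20 samples, and the gene did not pass (difference 0.71, limma adjusted p = 0.137); without that sample it did (0.99, limma adjusted p = 0.0328). Atg13 did not pass either (difference 0.49, limma adjusted p = 0.153), and its difference was 0.22 without ZT8 replicate 2.

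Membrane supply genes encode the scramblase ATG9A, the lipid-transfer proteins ATG2A, ATG2B, VPS13A and VPS13C, and the phosphoinositide-binding WIPI proteins that guide ATG2 to the growing membrane. All 7 differences were positive as deposited, beside 66.4% of all genes, from 0.011 to 1.29 with a median of 0.89. Of the 7, 2 passed, Atg2b and Vps13c, beside 12.8% of all genes called higher. Both lie in the longest length group, described further on, where 36.5% of genes were called higher. Signs of Wipi1 and Wipi2 turned negative under quantile normalization, under median-ratio scaling and after correction for length and GC, and that of Vps13a under the last. The median of the 7 was 0.57 with 1 called under quantile normalization, and 0.17 with 0 called in limma after the length and GC correction. Atg2b (ENSMUSG00000041341) was at 8.30, 10.4, 10.2 and 9.05 TPM at ZT20 and at 2.56, 3.07 and 4.35 TPM at ZT8. No ZT20 sample came near the ZT8 range. The log2 difference was 1.29 (standard error 0.21, limma adjusted p = 0.00878). It was 1.27 without ZT20 replicates 3 and 4 (limma adjusted p = 0.184), and the adjusted p ran from 0.00266 to 0.658 over its alternatives.

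Vps13c (ENSMUSG00000035284), a bridge-like lipid-transfer protein found where the endoplasmic reticulum meets late endosomes and lysosomes, was at 9.46, 9.96, 8.55 and 8.65 TPM at ZT20 and at 3.87, 5.44 and 4.03 TPM at ZT8. The groups did not overlap. On the log2 scale the difference was 0.91 (standard error 0.19, limma adjusted p = 0.0179). It was 0.71 under median-ratio scaling and 0.57 under quantile normalization, and did not pass there (limma adjusted p = 0.0534 and 0.0977). With ZT20 replicate 1, 3 or 4 left out the difference was as large, at 0.89, 0.94 and 0.93, and the adjusted p was 0.0579, 0.0634 and 0.0585. The difference was 0.99 without ZT20 replicates 3 and 4 (limma adjusted p = 0.207), in a range of 0.00362 to 0.674 over the alternatives.

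A further pair of these genes had separate groups without passing. Atg2a was at 11.1, 9.29, 8.98 and 8.05 TPM at ZT20 and at 4.78, 1.04 and 6.63 TPM at ZT8, where replicate 2 was far below the others (difference 1.198, limma adjusted p = 0.0796). Its difference was 0.63 without that sample (limma adjusted p = 0.0563) and 1.58 without ZT8 replicate 3 (limma adjusted p = 0.0475). Vps13a was at 11.5, 12.1, 11.8 and 9.88 TPM at ZT20 and at 7.09, 8.18 and 6.31 TPM at ZT8 (difference 0.59, limma adjusted p = 0.0528), and without ZT8 replicate 2 it passed (0.68, limma adjusted p = 0.0241). Atg9a ranged from 30.6 to 64.8 TPM at ZT20 and was at 44.0, 10.8 and 37.8 TPM at ZT8, so the groups overlapped (difference 0.89, limma adjusted p = 0.203, and 0.29 without ZT8 replicate 2). Wipi1 and Wipi2 differed by 0.011 and 0.074, less than their standard errors of 0.17 and 0.16.

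The phosphoinositide kinase complex that marks the site of autophagosome growth consists of the kinase VPS34 (Pik3c3) with Beclin 1 and ATG14. None of its 3 genes passed in limma, and 0 had an unadjusted p under 0.05, beside 16.4% and 34.6% of all genes. Becn1, the Beclin 1 gene, was at 284, 277, 285 and 274 TPM at ZT20 and at 289, 260.5 and 315 TPM at ZT8. The ZT20 values lay inside the ZT8 range, with a difference of -0.037 whose 95% interval ran from -0.27 to 0.20. Pik3c3 differed by -0.0059 (interval -0.39 to 0.38) and Atg14 by 0.37 (interval -0.44 to 1.18), which was -0.00059 without ZT8 replicate 2.

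Conjugation genes encode the enzymes that mature ATG8 proteins and join them to lipid: the protease ATG4B, the E1-like ATG7, the E2-like ATG3 and the ATG12, ATG5 and ATG16L1 assembly that directs the last step. None of the 6 passed in limma, and 0 had an unadjusted p under 0.05, beside 16.4% and 34.6% of all genes. Differences ran from -0.32 to 0.36. Atg3 was at 79.1, 128, 120 and 109 TPM at ZT20 and at 139, 129.5 and 134 TPM at ZT8. Its groups did not overlap, though ZT20 replicate 2 was close to ZT8 replicate 2 (difference -0.32, limma adjusted p = 0.212, and -0.175 without ZT20 replicate 1). Atg12 had a difference of -0.17 as deposited and of -0.59 after the length and GC correction, where it passed (limma adjusted p = 0.0389).

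Some lysosomal genes, such as Ctsb and Psap, were at the abundant end of the list together with ATG8 genes, while others, such as Grn and Lamp1, were not. Ctsb, which encodes the cysteine protease cathepsin B, was at 2273, 2341, 2467 and 2627 TPM at ZT20 and at 2734, 2138 and 2793 TPM at ZT8. The ZT20 samples all fell within the ZT8 range (difference -0.066, 95% interval -0.35 to 0.22). Psap, whose product is cut into the saposins that help degrade sphingolipids, was at 1193, 1089, 1309 and 1344 TPM at ZT20 and at 1204, 716 and 1200.4 TPM at ZT8. Ctsd, the aspartic protease cathepsin D, was at 969, 749, 925 and 936 TPM at ZT20 and at 864, 478 and 788 TPM at ZT8. In both genes ZT8 replicate 2 was the lowest of all 7 samples and the other ZT8 samples lay in the ZT20 range. Psap and Ctsd differed by 0.28 and 0.37 with that sample (limma adjusted p = 0.323 and 0.231) and by 0.033 and 0.11 without it.

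The 6 hydrolase and cofactor genes also include Ctsl, Hexa and Grn (progranulin). None passed in limma and 0 had an unadjusted p under 0.05, beside 16.4% and 34.6% of all genes. Their differences ran from -0.32 to 0.37. Ctsb and Ctsl passed as lower after the length and GC correction, at -0.53 and -0.64 (limma adjusted p = 0.0206 and 0.0241), and Hexa under median-ratio scaling at -0.55 (limma adjusted p = 0.0215) and without ZT8 replicate 2 at -0.46 (limma adjusted p = 0.0276). Macrophages are rich in lysosomal enzymes, so their markers were read beside these genes: the 12 listed markers summed to between 350 and 696 TPM at ZT20 and between 373 and 855 TPM at ZT8, with overlapping ranges. Of the 11 tested, C1qa was called lower and Mrc1 higher at ZT20, and the part of macrophage RNA in the hydrolase levels was not tested.

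Lysosomal membrane genes did not pass, 0 of 3 in limma, and 0 had an unadjusted p under 0.05, beside 16.4% and 34.6% of all genes. Lamp2, a major glycoprotein of that membrane, was at 322, 313, 375 and 367 TPM at ZT20 and at 381, 374 and 422 TPM at ZT8 (difference -0.19, limma adjusted p = 0.257), and passed under median-ratio scaling (-0.42, limma adjusted p = 0.0325). Lamp1 ranged from 51.4 to 81.8 TPM at ZT20 and from 41.4 to 60.0 TPM at ZT8 (difference 0.28). Mcoln1, the calcium channel TRPML1, was at 97.5 to 114 TPM at ZT20 and at 96.0, 37.0 and 114 TPM at ZT8, so only ZT8 replicate 2 set it apart (difference 0.47 with it and -0.020 without it).

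V-ATPase is the proton pump that acidifies the lysosome. None of its 5 subunit genes passed in limma, beside 16.4% of all genes called. Beside 34.6% of all genes, 1 of the 5 had an unadjusted p under 0.05. That gene was Atp6v0a1, a subunit of the membrane sector abundant in neurons, at 174, 122, 193 and 195 TPM at ZT20 and at 135, 80.5 and 113 TPM at ZT8. ZT20 replicate 2 lay among the ZT8 values (difference 0.65, limma adjusted p = 0.0749), and without it the gene passed (0.80, limma adjusted p = 0.0430). Atp6v1b2, a subunit of the catalytic sector, had the tightest interval of the 5: it was at 704 to 798 TPM at ZT20 and 726 to 801 TPM at ZT8, a difference of -0.0088 with a 95% interval from -0.23 to 0.21.

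Tfeb and Tfe3 encode the transcription factors that drive lysosomal and autophagy genes. Neither passed in limma, and 0 of the 2 had an unadjusted p under 0.05, beside 16.4% and 34.6% of all genes. Tfeb was at 3.17, 3.12, 3.43 and 3.27 TPM at ZT20 and at 3.03, 6.81 and 3.40 TPM at ZT8. ZT8 replicate 2 stood apart, and the other ZT8 samples lay close to the ZT20 range (difference -0.29 with it and 0.012 without it). Tfe3 was at 24.2 to 36.9 TPM at ZT20 and 24.9 to 33.4 TPM at ZT8 (difference 0.14, limma adjusted p = 0.616).

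**Figure D3:**
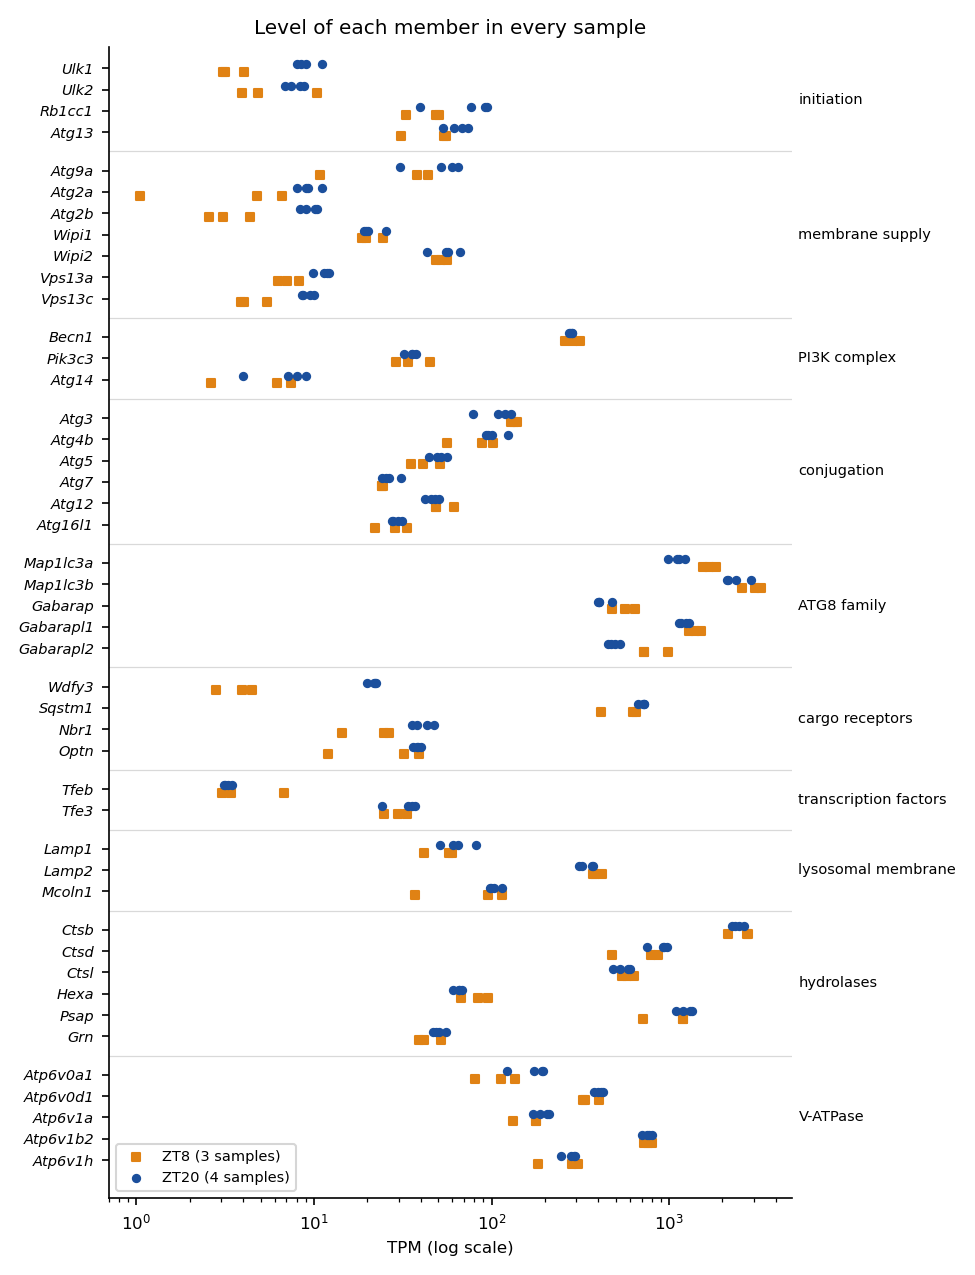
TPM of each of the 45 members in every sample on a log axis, ordered by role, with circles for the 4 ZT20 samples and squares for the 3 ZT8 samples. ATG8 family and hydrolase genes reach above 1000 TPM, while Wdfy3, Ulk1, Atg2b and Vps13c lie between 2.56 and 22.3 TPM.

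Promoters were read because TFEB binds an E-box core, CACGTG, within the longer CLEAR element, and because the clock factors CLOCK and BMAL1 bind the same core. RefSeq promoter sequences of build GRCm38.p6 (250 bases before to 50 after the start) were matched for 34 of the 45 members, with 39 promoters in all. CACGTG, searched on both strands (it reads the same on each), occurred in 10 of the 39 (25.6%), against 7.15% of 32851 promoters of the same length. Those 32851 cover 27025 genes, more than were tested in limma. The share among tested genes, or among promoters of like GC content, was not computed. The palindromic form of the CLEAR element, which extends CACGTG on both sides, was found in 0 of the 39 and in 0.326% of all. The 10 members with CACGTG were Atg3, Atg5, Atg7, Atg14, Atp6v0d1, Atp6v1a, Ctsd, Ctsl, Lamp1 and Mcoln1. In limma 0 of these 10 passed, 0 had an unadjusted p under 0.05, and their median difference was 0.25. Of the 24 members whose promoters lacked CACGTG, 3 were higher and 1 lower, with a median of 0.32, beside 16.4% of all genes called. The unadjusted p was under 0.05 for 8 of these 24, beside 34.6% of all genes. Wdfy3 is among the 11 members with no promoter entry. A match is a description of letters, not a bound site.

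A few stretches show the contrast, with CACGTG in capitals: Lamp1 has the most copies among the 34 members matched, Mcoln1 is a channel gene with 2 copies in its full window, and Gabarapl2 is a called member with none. They run 5′ to 3′ on the plus strand of GRCm38.p6 and stop before the first annotated exon: Lamp1 at chr8:13158911-13159160, Mcoln1 at chr8:3500269-3500456 and Gabarapl2 at chr8:111940453-111940702. In Lamp1 the copies begin 61, 45, 28 and 15 bases before the start, and in Mcoln1 they begin 71 and 45 bases before it, of which the first is shown.
Lamp1: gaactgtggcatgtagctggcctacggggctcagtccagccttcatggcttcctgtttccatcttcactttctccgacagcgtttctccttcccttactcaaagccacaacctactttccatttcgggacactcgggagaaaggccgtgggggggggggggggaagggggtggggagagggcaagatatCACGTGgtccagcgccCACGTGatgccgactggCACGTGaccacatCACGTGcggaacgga
Mcoln1: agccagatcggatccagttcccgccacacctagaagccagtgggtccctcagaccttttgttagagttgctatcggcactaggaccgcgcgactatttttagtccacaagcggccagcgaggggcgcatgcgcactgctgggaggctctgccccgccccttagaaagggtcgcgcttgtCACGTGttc
Gabarapl2: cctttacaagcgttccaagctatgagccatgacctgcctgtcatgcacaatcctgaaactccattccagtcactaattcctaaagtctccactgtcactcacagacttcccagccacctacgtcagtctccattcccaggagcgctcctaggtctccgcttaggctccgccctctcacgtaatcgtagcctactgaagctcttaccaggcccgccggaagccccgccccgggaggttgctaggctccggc

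Transcript length moved with the differences, over all genes and among the members. Length is that of the longest transcript of each gene in GENCODE M21. Spearman's rho between length and difference was 0.551 over the 45 members and 0.410 over 14745 genes, given as a description since genes share libraries. With all tested genes split into 10 groups of equal size by length, the median difference was -0.13 in the second shortest group and 0.69 in the longest (median 7971 nt). Of the longest group 36.5% were called higher at ZT20 and 0.407% lower. The 5 members in that group were Rb1cc1, Atg2b, Vps13a, Vps13c and Wdfy3, and 3 of them were called.

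Wdfy3 has the longest transcript of the members, 14274 nt, and its difference stood 1.58 above the median of the longest group. It ranked at position 1 of 1475 genes there, while Atg2b ranked at 152, Vps13c at 487, Rb1cc1 at 692 and Vps13a at 842. Ulk1 (5213 nt) and Nbr1 (4789 nt) stood 0.63 and 0.44 above the medians of their own length groups. Gabarapl2 (1677 nt) and Map1lc3a (1112 nt) stood 0.69 and 0.47 below theirs. Map1lc3b (4138 nt) stood 0.68 below its group, although its own difference was -0.32.

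After each sample was corrected for length and GC content the Wdfy3 difference was 1.44 (limma adjusted p = 0.00651), and it was the only member then called higher. Atg2b, Ulk1, Nbr1 and Vps13c shrank to 0.61, 0.59, 0.46 and 0.17 (limma adjusted p = 0.122, 0.121, 0.146 and 0.591). Gabarapl2 and Map1lc3a stayed called, at -0.68 and -0.61 (limma adjusted p = 0.0213 and 0.0175). The 4 others then called lower were Becn1 (-0.41), Atg12 (-0.59), Ctsb (-0.53) and Ctsl (-0.64). A score of neuronal markers minus those of other cells ran from 5.23 to 5.68 at ZT20 and from 4.69 to 5.38 at ZT8. With it in the model Wdfy3 was the only member called (difference 2.54, limma adjusted p = 0.0261). Differences of the other higher members were 1.15 for Ulk1, 1.06 for Atg2b, 0.98 for Vps13c and 0.73 for Nbr1, not far from those without the score (limma adjusted p = 0.119, 0.137, 0.145 and 0.289). Only 139 of all 14800 genes were called in that fit. In these bulk samples fewer cells of a type and less RNA per cell cannot be told apart.

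**Figure D4:**
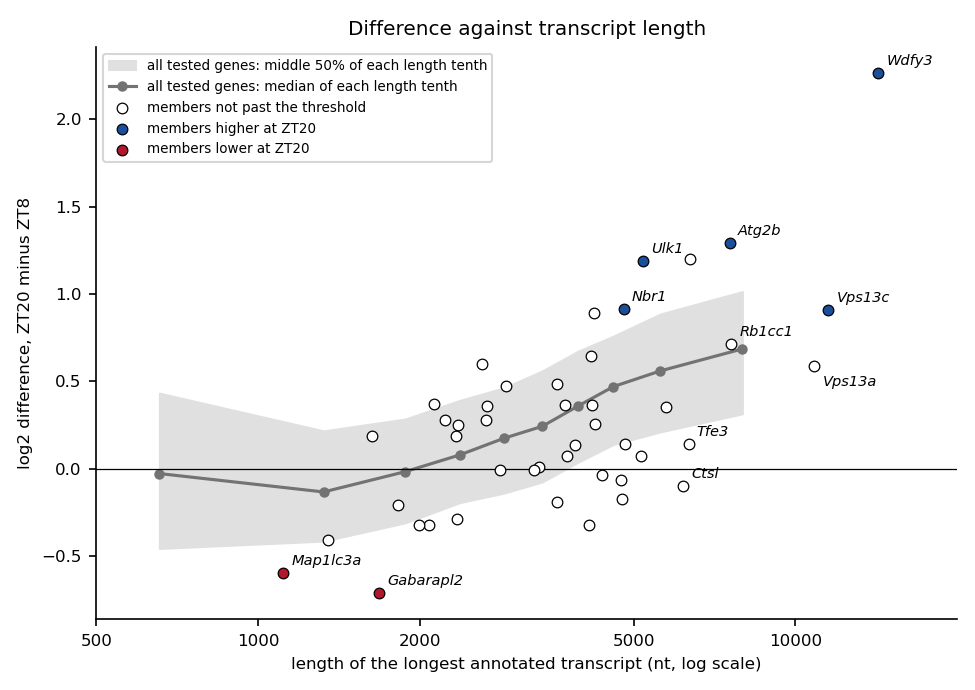
Difference between the groups (y axis, log2, ZT20 minus ZT8) against the length of the longest annotated transcript (x axis, nt, log scale); circles are the 45 members, the line joins the medians of all tested genes in 10 length groups, and the band spans the middle 50% of each group. Wdfy3 lies far above the band, while Vps13a and Rb1cc1 lie close to the line's last value.

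**Figure D5:**
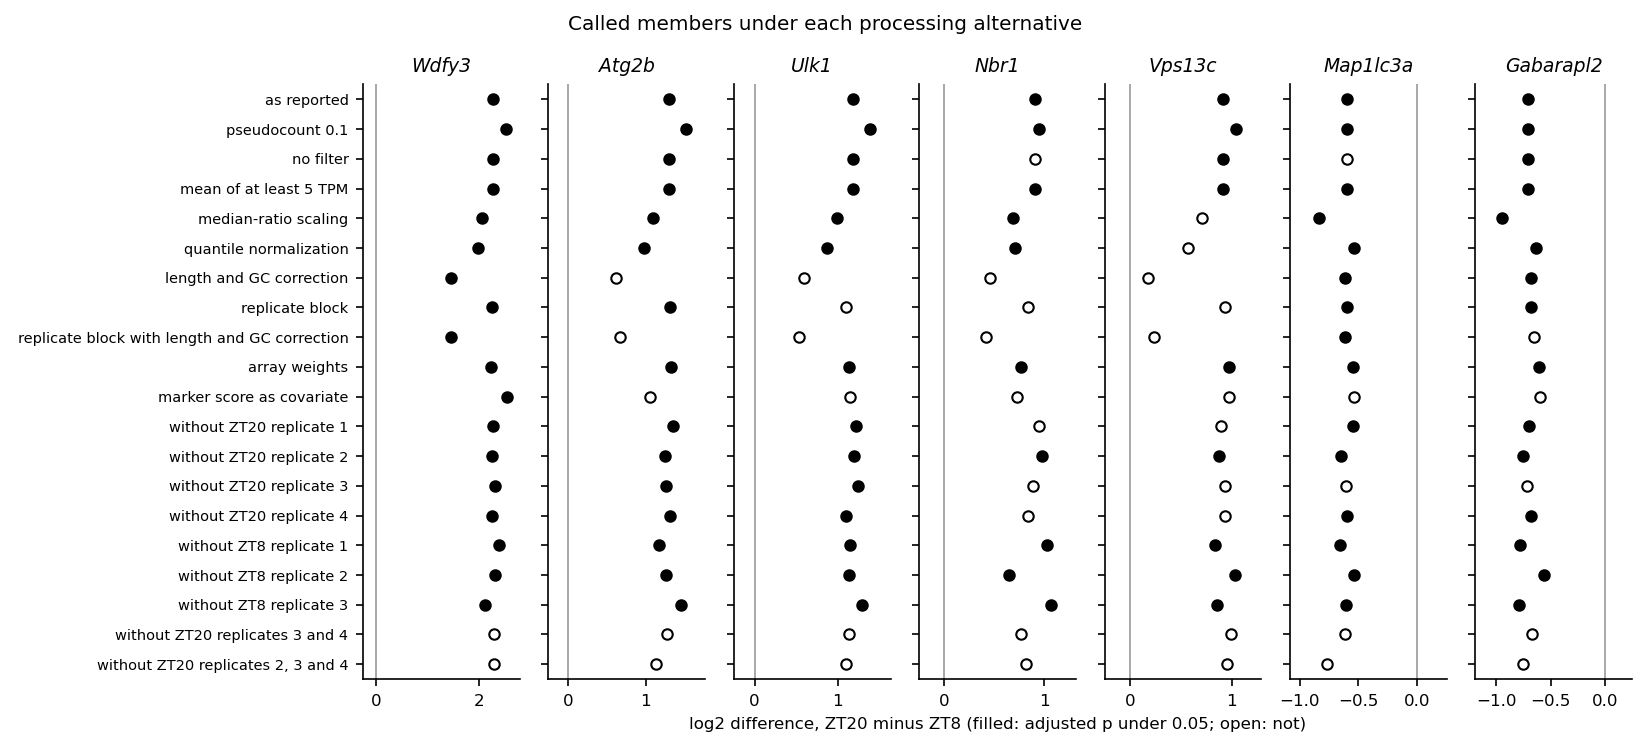
Log2 difference of the 7 called members (x axis, ZT20 minus ZT8) as reported and under each of 19 processing alternatives (rows); filled circles have an adjusted p under 0.05 and open circles do not. No member crosses 0, and Wdfy3 keeps filled circles in all but the rows that leave out 2 or 3 ZT20 samples.

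Some of these genes overlap other gene models, counted over whole gene spans with introns included. In GENCODE M21 Wdfy3 overlaps 1 gene model on its own strand and 2 on the other, and Atg2b overlaps 2 on the other strand, one of them the coding gene Gskip. Ulk1, Nbr1, Vps13c, Map1lc3a and Gabarapl2 overlap none. The labels do not state strand-specific counting, and whether reads of neighbouring genes entered these values was not tested.

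Other genes of the pathway were read from a list of 142, of which 137 were tested. Called genes were 17 (12.4%) on the higher and 12 (8.76%) on the lower side at ZT20, beside the background of 12.8% and 3.61%, with a median difference of 0.19. Median-ratio scaling turned this balance to 8 higher and 22 lower, and the length and GC correction to 4 and 17. Among 36 further autophagy genes 6 were higher and 4 lower. Tbk1, the kinase that phosphorylates optineurin and p62, was at 49.7, 49.7, 50.4 and 49.96 TPM at ZT20 and at 24.7, 23.0 and 12.9 TPM at ZT8. The ZT20 samples were almost equal to each other and well above every ZT8 sample (difference 1.31, limma adjusted p = 0.00826). Vmp1, a scramblase of the endoplasmic reticulum needed for autophagosome formation, was at 183, 229, 163 and 182 TPM at ZT20 and at 274, 375 and 312 TPM at ZT8 (difference -0.75, limma adjusted p = 0.0162).

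Nutrient signalling to autophagy runs through the kinases mTORC1, which blocks ULK1, and AMPK, which activates it. Of 23 tested genes 5 were higher and none lower in limma, with an unadjusted p under 0.05 for 10, beside 12.8%, 3.61% and 34.6% of all genes. Prkaa1, a catalytic subunit of AMPK, was at 39.2, 39.3, 48.0 and 49.6 TPM at ZT20 and at 19.1, 21.1 and 18.1 TPM at ZT8. Both groups were narrow and far apart (difference 1.13, limma adjusted p = 0.00410). The other 4 were Lamtor2, Slc38a9, Prkaa2 and Tsc2, with differences from 0.58 to 0.80. After the length and GC correction Lamtor2 still passed (0.70, limma adjusted p = 0.0172), while Slc38a9, Prkaa2 and Tsc2 were at 0.10, 0.21 and 0.15 and did not. Under median-ratio scaling Prkaa2 passed (0.57, limma adjusted p = 0.0448), and Lamtor2, Slc38a9 and Tsc2 did not (0.34, 0.56 and 0.58, limma adjusted p = 0.171, 0.0794 and 0.108). Lamtor2, Slc38a9, Prkaa2 and Tsc2 were at 0.74, 0.72, 0.67 and 0.78 without ZT20 replicates 3 and 4 (limma adjusted p from 0.137 to 0.293). All 4 also missed the threshold, at differences of like size, without ZT20 replicate 3, ZT20 replicate 4 or ZT8 replicate 3 (limma adjusted p from 0.0509 to 0.0951). The same held without ZT20 replicate 1 for Lamtor2, Slc38a9 and Tsc2, and without ZT20 replicate 2 or ZT8 replicate 1 for Slc38a9 and Tsc2.

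Relatives of Wdfy3 with a BEACH or FYVE domain numbered 8 tested, of which 2 were higher at ZT20, beside 12.8% of all genes and 36.5% of the longest length group. Wdfy2 was at 11.996, 7.10, 12.5 and 14.1 TPM at ZT20 and at 3.93, 2.81 and 3.31 TPM at ZT8 (difference 1.48, limma adjusted p = 0.00972). Wdr81, a partner of p62 in aggregate removal, was at 6.08 to 8.04 TPM at ZT20 and 1.89 to 3.80 TPM at ZT8 (difference 1.04, limma adjusted p = 0.0235). In both genes the groups were separate.

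Further lysosomal genes numbered 32 hydrolases (1 higher, 3 lower), 23 membrane and sorting genes (2 higher, 3 lower) and 13 V-ATPase genes (1 higher, 2 lower), beside 12.8% higher and 3.61% lower over all genes. Igf2r, the receptor that sorts hydrolases by their mannose 6-phosphate, was at 3.35 to 4.003 TPM at ZT20 and at 1.82, 0.743 and 1.17 TPM at ZT8 (difference 1.12, limma adjusted p = 0.0208). Cd63, a tetraspanin of late endosomes, was at 376, 552, 369 and 411 TPM at ZT20 and at 718, 1026 and 717 TPM at ZT8 (difference -0.94, limma adjusted p = 0.0147). Atp6v0b was at 966 to 1260 TPM at ZT20 and 1550 to 2451 TPM at ZT8 (difference -0.80, limma adjusted p = 0.0196). The cathepsin genes Ctso and Ctsk differed by -1.03 and -0.96 (limma adjusted p = 0.0122 and 0.0217), from ZT8 means of 15.6 and 8.89 TPM. Without ZT20 replicates 3 and 4 the differences of these 10 genes were of like size: 1.31 for Tbk1, 0.98 for Prkaa1, 1.245 for Wdfy2, 0.92 for Wdr81 and 1.16 for Igf2r, and -0.63 for Vmp1, -0.83 for Cd63, -0.69 for Atp6v0b, -1.01 for Ctso and -1.16 for Ctsk. None passed there, with limma adjusted p-values from 0.137 to 0.283. Tbk1, Prkaa1 and Wdfy2 passed with any 1 sample left out, and the other 7 missed the threshold without ZT20 replicate 3, at differences of like size (limma adjusted p from 0.0509 to 0.0828). Wdr81, Igf2r, Atp6v0b and Ctsk also missed it without replicate 1, and Vmp1, Wdr81, Igf2r, Cd63 and Atp6v0b without replicate 4. After the length and GC correction Wdr81 and Igf2r were at 0.31 and 0.38 and did not pass, while the other 8 did. Wdfy2 then passed at a smaller difference (0.87, limma adjusted p = 0.0481). With the marker score as covariate only Tbk1 of the 10 passed (1.77, limma adjusted p = 0.0338). Prkaa1 and Wdfy2 were at 1.26 and 1.45 in that fit, and Cd63 and Ctso at -0.69 and -0.80. The genes that did not pass there had limma adjusted p-values from 0.0530 to 0.252. In the fit without ZT20 replicates 3 and 4 limma called 0 of 14800 genes, and 2425 had an unadjusted p under 0.05, 23 of them among the other pathway genes and 8 among the 45 members.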

How the data were processed

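RNA-seq of 7 neuron-enriched mouse L4 to L6 dorsal root ganglion samples was used, 4 at ZT20 and 3 at ZT8. The deposited table holds TPM, made by the authors and summed to genes. The submitters' processing notes name FastQC 0.11.9, Trim Galore 0.6.6, Salmon 1.6.0, DESeq2 1.34.0 and GRCm39, with no roles or settings; strand handling and annotation release are not given in the sources used here. TPM keeps no depth, and its fixed sum lets abundant transcripts shift all others.

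Of 54309 genes, 14800 whose mean reached 1 TPM were fitted in limma 3.58.1 (R 4.3.3) on log2(TPM + 1) with a trended prior, and p-values were adjusted by Benjamini-Hochberg over all of them. The step was tested on simulated data with 14800 genes, 200 of which were given a log2 change of 1.5: 58% to 66% were recovered over 5 runs. In each run at most 6.47% of the calls were false. Length and GC content came from GENCODE M21 by Ensembl ID (14745 genes) and were removed by loess with span 0.3. Promoters came from RefSeq. Figures were drawn with matplotlib 3.10.9. Per-sample values are given for called members, the 5 with the highest mean TPM, Wdfy3 and at most 1 more per role, plus members whose groups did not overlap or that 1 sample set apart, chosen after their values were seen; of other pathway genes the 5 largest called differences each way are named. Nutrient genes beyond those were also named after their values were seen. The members and lists were chosen with earlier results of these data known. Alternatives were another pseudocount (0.1), other filters, median-ratio and quantile scaling, the length and GC correction, a replicate block, sample weights, a marker covariate and leaving out samples.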

Additional observations from a re-analysis of the deposited data

Results flagged for a closer look

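Gabarap in ZT20 replicate 2 stood away from the other ZT20 samples, at 479 TPM against 397 to 404 TPM. The gap to the nearest of them was 0.917 of the range of the group, above Dixon's critical value for 4 samples. It was the 1 such case among the ZT20 groups of the 45 members, and chance alone gives about 5% of groups. The ZT8 groups, with 3 samples each, were not tested this way.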

How the results depend on the processing

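The counts of called genes are given as higher and lower at ZT20. As reported they were 5 and 2 for the members, 17 and 12 for the other pathway genes, and 1899 and 534 for all genes; a pseudocount of 0.1 or a floor of 5 TPM kept every count within 1.5 times of these. With no filter they were 4 and 1, 6 and 5, and 978 and 200. Median-ratio scaling gave 4 and 6, 8 and 22, and 1128 and 1160. Quantile normalization gave 4 and 2, 6 and 13, and 1023 and 814. The length and GC correction gave 1 and 6, 4 and 17, and 528 and 776. Array weights gave 8 and 4, 32 and 20, and 2982 and 917. The marker score as covariate gave 1 and 0, 1 and 0, and 136 and 3. In that limma fit unadjusted p was under 0.05 for 7 members, 35 other pathway genes and 2787 of all 14800 genes. Leaving out 1 sample at a time gave 3 to 7 and 0 to 3 for the members, 3 to 25 and 0 to 14 for the other pathway genes, and 543 to 2374 and 81 to 681 for all genes, the lowest, or tied for it, without ZT20 replicate 3. Without ZT20 replicates 3 and 4 the counts were 0 and 0 in all sets, and likewise without replicates 2, 3 and 4, where the lone ZT20 sample is assumed to vary like the others; unadjusted p was under 0.05 for 8 and 4 members, 23 and 10 other pathway genes, and 2425 and 1133 of all genes. The cause of these shifts was not tested.

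The replicate numbers were not taken to pair samples: deviations of same-numbered samples correlated at -0.0141, 0.153 and 0.083, and only ZT20 replicate 2 correlated best with its own number. With the number as a block the counts were 2 and 2 for the members, 5 and 4 for the other pathway genes, and 891 and 283 for all genes. The block fitted with the correction for length and GC gave 1 and 1, 1 and 5, and 231 and 289. ZT20 replicate 4 has no partner and drops out of both block fits.

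Over these alternatives 25 members kept their sign and 20 did not, and none of the 7 called members changed sign. Signs turned under quantile normalization for Ulk2 (-0.0017), Wipi1 (-0.24), Wipi2 (-0.044), Becn1 (0.0097), Atg7 (-0.096), Atg16l1 (-0.15), Tfe3 (-0.064) and Atp6v1b2 (0.085). Median-ratio scaling turned Wipi1 (-0.21), Wipi2 (-0.155), Atg7 (-0.088), Atg16l1 (-0.15), Tfe3 (-0.085), Grn (-0.039), Atp6v0d1 (-0.045) and Atp6v1h (-0.093). The length and GC correction turned Ulk2 (-0.19), Wipi1 (-0.26), Wipi2 (-0.46), Vps13a (-0.059), Atg4b (-0.022), Atg7 (-0.24), Atg16l1 (-0.21), Tfe3 (-0.49), Atp6v1a (-0.092) and Atp6v1h (-0.20). With the block added to it, Ulk2 (-0.14), Wipi1 (-0.33), Wipi2 (-0.51), Atg14 (-0.050), Atg4b (-0.086), Atg7 (-0.28), Atg16l1 (-0.17), Tfe3 (-0.50), Atp6v1a (-0.11) and Atp6v1h (-0.21) turned, and with the block alone Wipi1 (-0.077) and Wipi2 (-0.017). Array weights turned Wipi1 (-0.0087) and Pik3c3 (0.15), and the marker score turned Wipi1 (-0.087), Pik3c3 (0.078) and Atp6v1h (-0.098). Without ZT20 replicates 3 and 4 Wipi1 (-0.097), Wipi2 (-0.087) and Tfe3 (-0.027) turned, and without replicates 2, 3 and 4 Rb1cc1 (-0.13) and Wipi1 (-0.071). Leaving out 1 sample at a time gave ranges across 0 for Wipi1 (-0.077 to 0.12), Wipi2 (-0.017 to 0.19), Becn1 (-0.11 to 0.029), Pik3c3 (-0.14 to 0.16), Atg14 (-0.00059 to 0.61), Atg16l1 (-0.087 to 0.20), Tfeb (-0.47 to 0.012), Mcoln1 (-0.020 to 0.78), Ctsb (-0.19 to 0.0031), Atp6v1b2 (-0.043 to 0.027) and Atp6v1h (-0.095 to 0.28). Tfeb was not tested at a floor of 5 TPM. Depth is unknown, so the counting error of the low members, such as Tfeb, Ulk1 and Atg2b, cannot be given.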
